A study of Arabidopsis thaliana with 20 samples.

Results

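The first day after AP1 activation was followed in Arabidopsis thaliana inflorescences on 4 of the 20 two-colour microarrays of a time course. These 4 arrays were chosen by their labels, as those that co-hybridised day 1 and day 0 tissue of the same set. The day 1 group was tissue of 35S:AP1-GR ap1 cal plants 1 day after activation, and the day 0 group was tissue of the same genotype on day 0. Both groups therefore lacked working copies of the plants' own AP1 and CAL genes. Both carried AP1 fused to GR, the hormone-binding part of the glucocorticoid receptor, under the broadly active 35S promoter. Plants grew at 20 °C in constant light and were treated just after bolting with 1 µM dexamethasone in 0.01% ethanol and 0.015% Silwet L-77, a wetting agent. About 25 plants were pooled per time point in each of 4 biologically independent tissue sets, and tissue was taken close to the inflorescence surface. Mock-treated and non-transgenic plants were not analysed here, and AP1 activity, the hormone, the wetting and 1 more day of growth cannot be told apart.

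AP1 (APETALA1) is a MADS-domain transcription factor that turns a newly formed lateral meristem into a flower, together with its close relative CAL (CAULIFLOWER) and with LFY (LEAFY). Without AP1 and CAL, meristems keep making more meristems instead of flowers, which gives the inflorescence a cauliflower form. In cells with the GR fusion, dexamethasone lets AP1 enter the nucleus, so that many meristems start to form flowers at about the same time. AP1 is known to repress genes of the inflorescence meristem and flowering time, and to activate genes of floral organ formation. AP1, CAL, LFY, SOC1, TFL1, AP3 and AG carried no name in the annotation used, so the fusion's own transcript was not checked here.

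All values are the authors' deposited log ratios, read as log10 and turned so that a value above 0 means a higher level on day 1 than on day 0. A value of 0.30 is close to a doubling in this reading. The direction is likely, not certain, because the labels give the dyes but not which channel was divided by which. With the channel order reversed, every value below would change its sign and nothing else. Day 1 carried Cy5 in sets 1 and 3 and Cy3 in sets 2 and 4. In sum, 28634 features were tested, of which 17186 were genes with a locus name, 1632 of those had a gene symbol, and 11448 were probes with no gene name. A feature was called when its adjusted p was under 0.05 in a limma fit to all 20 arrays. The fit held 5 day intervals and a dye coefficient. The number of arrays limits the precision, and the tissue is bulk, so fewer cells of a type and less RNA per cell cannot be told apart.

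The dye left a large trace. Across all features, arrays of opposite dye assignment correlated between -0.58 and -0.47 after turning, against 0.54 for sets 1 and 3 and 0.67 for sets 2 and 4. The dye coefficient was itself called for 8270 features, or 28.9%. Values stop at 2 and -2, which is 100-fold in the log10 reading, and 43.1% to 79.7% of the empty spots with a value on these 4 arrays (372 to 394 spots) stood at the upper limit before turning. Of the 950 features called for day 1 over day 0, 231 (24.3%) also had a called dye coefficient, and 6 had opposite means in the 2 dye assignments. Set 3 had the widest spread, with an interquartile range of 0.19 over probes, against 0.10 to 0.15 in the other sets.

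**Figure D1:**
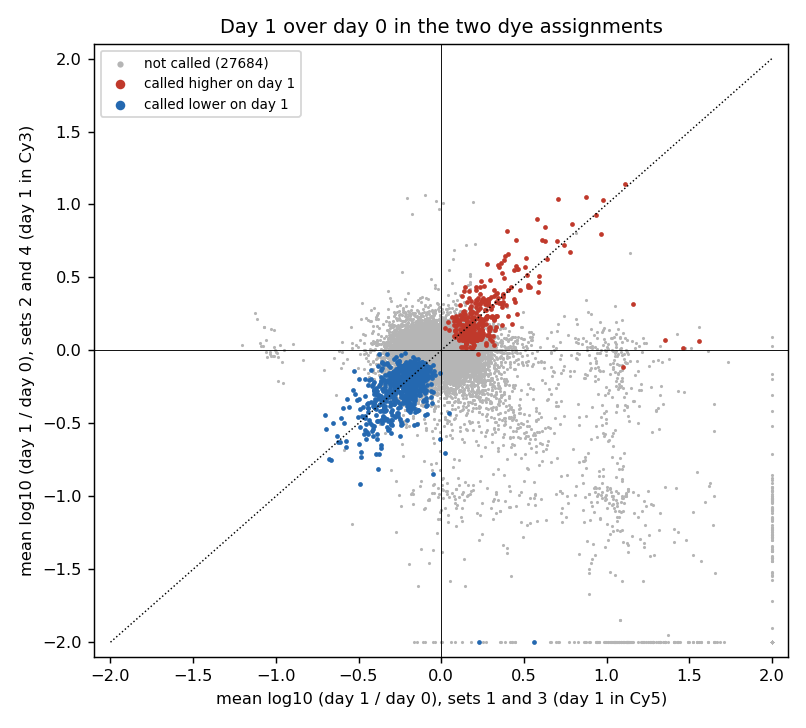
Each point is 1 of 28634 features, placed by its mean log10 ratio of day 1 over day 0 in sets 1 and 3, with day 1 in Cy5 (horizontal), and in sets 2 and 4, with day 1 in Cy3 (vertical). Features called higher on day 1 (red) and lower on day 1 (blue) follow the dotted line of equal values, while the uncalled features (grey) spread towards the lower right, where the sign differs between the dye assignments.

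On day 1, 329 features were higher and 621 lower than on day 0, so that 65.4% of the 950 calls were falls. With the channel order reversed, 621 would be higher and 329 lower, and 34.6% would be falls. The share called was 3.32% of all features, 1.15% higher and 2.17% lower. Most changes were modest, with a median of 1.57-fold among rises and 1.71-fold among falls. More than 2-fold changes were called for 84 rises and 178 falls, but more than 5-fold changes for 16 rises and 5 falls, or 13 rises and 3 falls without features that held a value at the limit. A further 644 features differed by more than 2-fold on average without being called. Set 3 gave the value nearest to 0 for 278 of the 621 falls and for 121 of the 329 rises. A fit that took the tissue set as a block called 605 features, 208 higher and 397 lower. The 4 arrays fitted alone with limma called 0 features, although 3538 had an unadjusted p under 0.05, so the calls rest on the spread estimated over all 20 arrays. A fit without 1 set lacked its arrays in all 5 intervals, so a lost call can also reflect the smaller number of arrays. Leaving out set 1, 2 or 4 lowered the number of calls to 349, 195 and 341, whereas leaving out set 3 gave 1040 calls. In the full fit and in each of the 4 fits without 1 set, 147 features were called, 70 higher and 77 lower. Among genes with a symbol, 27 were higher and 43 lower, or 4.29% of the 1632 tested, and 15 of these 70 were among the 147.

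FD and 3 MADS-box genes, all known from the inflorescence meristem or the timing of flowering, fell. Of the 9 measured genes on a list of such regulators, 4 were called (44.4%, against 3.32% of all features), all lower. The median change of the list was -0.21, against 0.00014 over all features, but its highest member stood at 0.46 without being called. This list was drawn up with earlier results of the same arrays known, so its direction is not independent evidence. FD, the bZIP partner of the flowering signal FT in the shoot apex, had values of -0.36, -0.51, -0.30 and -0.42 in sets 1 to 4. All 4 sets were thus clearly below 0. The mean was -0.40 ± 0.09 (SD, n = 4), a 2.49-fold lower level on day 1 than on day 0 (adjusted p = 0.00016).

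The other 3 falls of the list were MADS-box genes related to SOC1, which promotes flowering. AGL72 had values of -0.51, -0.34, -0.30 and -0.21 and fell 2.18-fold (adjusted p = 0.000639). AGL42 had values of -0.42, -0.24, -0.17 and -0.21 and fell 1.82-fold (adjusted p = 0.00895). AGL71 had values of -0.12, -0.32, -0.07 and -0.36 and fell 1.65-fold (adjusted p = 0.017). Every set was below 0 for all of these genes, with set 1 farthest for AGL72 and AGL42, and sets 2 and 4, the pair with day 1 in Cy3, farthest for AGL71. AGL24, another MADS-box gene of the inflorescence meristem, averaged -0.21 ± 0.05 (SD, n = 4) without being called (adjusted p = 0.0828). Of 62 measured MADS-box genes, these 3 were the only calls (4.84%, against 3.32% of all features), and the median of the family was -0.01. Its highest member stood at 0.43 without being called. Without set 2 the calls of AGL72, AGL42 and AGL71 were lost (highest adjusted p without 1 set 0.0558, 0.155 and 0.264), and those of AGL42 and AGL71 also without set 1 or 4, whereas FD stayed called (highest 0.0229).

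UFO, RBE, JAG and REM22, all known from young flowers, were higher on day 1 than on day 0. UFO (UNUSUAL FLORAL ORGANS), an F-box protein that works with LFY to switch on petal and stamen identity, had values of 0.40, 0.37, 0.11 and 0.32. It was 1.99-fold higher on day 1 than on day 0 (mean 0.30 ± 0.13, SD, n = 4, adjusted p = 0.000815), with set 3 lowest, and lost its call without set 2 (adjusted p = 0.068). UFO was the only call among 3 measured genes of the list of floral meristem and organ identity (33.3%, against 3.32% of all features). Not called were PUCHI, an AP2-type factor of early flower formation, at -0.15 ± 0.13 and SEU, a transcriptional co-repressor, at -0.08 ± 0.16 (SD, n = 4 each).

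RBE (RABBIT EARS), a zinc-finger protein needed for petals, had values of 0.52, 0.51, 0.38 and 0.66 and was 3.28-fold higher on day 1 (adjusted p = 4.01e-05). JAG (JAGGED), a zinc-finger protein that promotes the outgrowth of lateral organs, had values of 0.38, 0.33, 0.30 and 0.39 and was 2.24-fold higher (adjusted p = 0.000293). Both genes were raised in every set. The values of JAG lay close together, while those of RBE ran from 0.38 in set 3 to 0.66 in set 4. REM22, a B3-domain gene of the reproductive meristem family, had values of 0.61, 0.74, 0.19 and 0.89, a mean 4.06-fold rise (adjusted p = 0.000225). Its direction was shared by all sets, but set 3 stood well below the others. It was the only call among 6 measured B3-domain genes (16.7%, against 3.32% of all features).

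Organ growth gave a mixed picture beyond these genes. Of 13 measured genes of organ growth and polarity, 23.1% were called, against 3.32% of all features, and the median was 0.04. The highest member stood at 0.58 without being called. JAG and RBE were called higher and ARL, a relative of the organ size gene ARGOS, lower. ARL had values of -0.21, -0.37, -0.26 and -0.34 and was 1.97-fold lower (adjusted p = 0.0175, and 0.0539 with the tissue set as a block). Its call was also lost without set 1, 2 or 4 (up to 0.123). SAP (STERILE APETALA), a regulator of flower and ovule development, averaged -0.18 ± 0.07 (SD, n = 4) over 2 probes and was called lower (adjusted p = 0.0231, and 0.0646 with the block). Neither of its probes was called alone (-0.13 with adjusted p = 0.196, and -0.23 with adjusted p = 0.0741), and its call was lost without set 1, 2 or 4 (up to 0.258). Of the meristem and boundary list, 0 of 4 measured genes were called by limma, against 3.32% of all features, and 0 had an unadjusted p under 0.05. With 4 genes, 0 calls is near what that share gives. CLV3, the signalling peptide of shoot stem cells, had values of 0.08, -0.02, 0.22 and 0.22 and was not called.

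**Figure D2:**
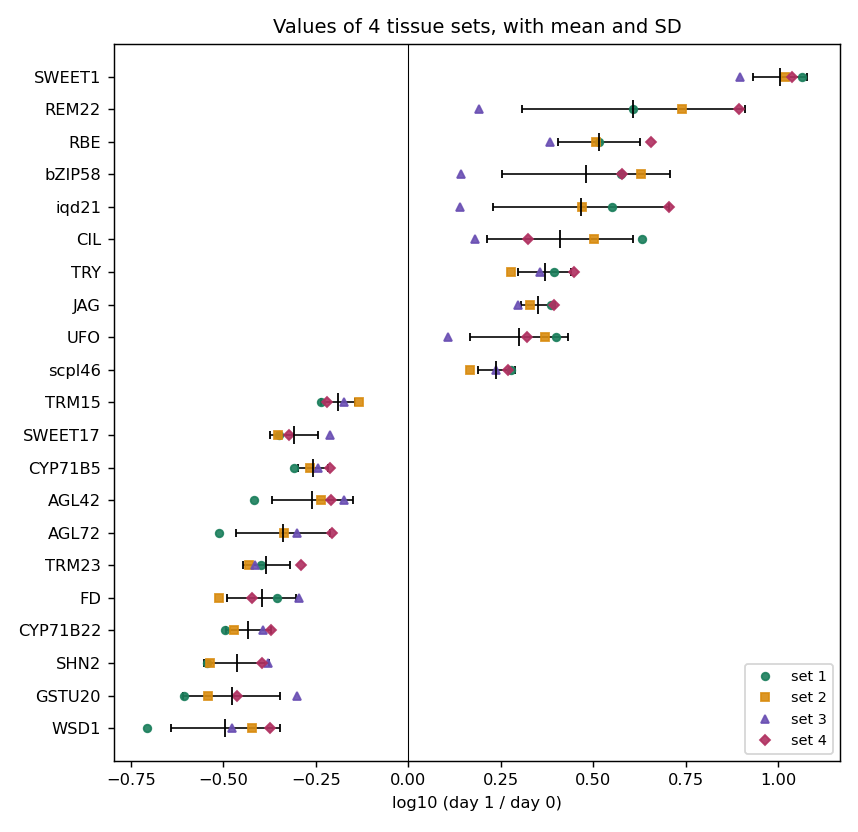
Log10 ratios of day 1 over day 0 for 21 genes with a symbol, with 1 coloured point for each tissue set, a vertical tick at the mean and bars of 1 SD (n = 4). SWEET1 stands alone at the right at about 1, set 3 (purple triangles) lies nearest to 0 for REM22, bZIP58, iqd21, CIL and UFO, and no point of these genes crosses 0.

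Other called transcription factors were bZIP58 and CIL, which rose, and WRKY6, WRKY42 and JKD, which fell. bZIP58 had values of 0.58, 0.63, 0.14 and 0.58 and was 3.02-fold higher on day 1 (adjusted p = 0.000742), while set 3 was low. It was called with each set left out. CIL had values of 0.63, 0.50, 0.18 and 0.32, a 2.57-fold rise (adjusted p = 0.000454) that also stayed called without any 1 set. Of 25 measured bZIP genes, bZIP58 was higher and FD lower, and no other was called (8%, against 3.32% of all features). The uncalled members lay between -0.25 and 0.60. WRKY6, a factor of senescence and defence responses, and WRKY42 fell 1.65-fold (mean -0.22 ± 0.11) and 1.88-fold (mean -0.27 ± 0.14, SD, n = 4 each), with adjusted p = 0.00283 and 0.00272. They were 2 of 9 measured genes with a WRKY symbol (22.2%, against 3.32% of all features), and members named by locus alone were not counted. Both lost their calls without set 2 or 4 (up to 0.106 and 0.0718), WRKY6 also without set 1. JKD, a zinc-finger protein of cell patterning known from roots, averaged -0.14 ± 0.08 and fell 1.38-fold (adjusted p = 0.0153), with set 1 at -0.02 and the other sets between -0.19 and -0.16. It lost its call without set 2, 3 or 4 (up to 0.183) and without the dye coefficient (0.116).

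WSD1, SHN2 and DEWAX, which act on the waxes of the plant surface, fell. WSD1, a wax ester synthase, had values of -0.71, -0.42, -0.48 and -0.37 and was 3.13-fold lower on day 1 than on day 0 (adjusted p = 0.00101). SHN2, an AP2-type factor of the SHINE group that drives wax and cutin formation, had values of -0.54, -0.54, -0.38 and -0.40 and was 2.91-fold lower (adjusted p = 4.01e-05). DEWAX (AT5G61590), an AP2-type factor known to repress wax genes, had values of -0.33, -0.35, -0.59 and -0.28 and was 2.45-fold lower (adjusted p = 0.00839). Every set was below 0 for these 3 genes, which were put together after their values were seen. WSD1 was the only call among 3 measured genes of the wax and cutin list (33.3%, against 3.32% of all features, median -0.10), which does not hold SHN2 or DEWAX. OLEO3, an oleosin of oil bodies, also fell, with values between -0.43 and -0.33 (2.34-fold, adjusted p = 0.00107). Without set 2 the calls of WSD1 and OLEO3 were lost (0.0551 and 0.0794), as was that of DEWAX without set 1, 2 or 4 (up to 0.125). SHN2 kept its call without any 1 set.

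TRY and GIS, known from trichomes, were higher on day 1, and BLT was lower. TRY was the only gene measured of the trichome marker list, and GIS and BLT were picked after their values were seen. TRY (TRIPTYCHON), a small MYB protein that inhibits hair formation in neighbouring cells, had values of 0.39, 0.28, 0.36 and 0.45. It was 2.34-fold higher on day 1 (adjusted p = 2.46e-05), with all sets close together, and stayed called without any 1 set. GIS, a zinc-finger protein that promotes hairs on inflorescence organs, averaged 0.11 ± 0.05 (SD, n = 4), a 1.29-fold rise (adjusted p = 0.0439, and 0.11 with the tissue set as a block). BLT, which is needed for hair branching, had values of -0.30, -0.31, -0.16 and -0.19, a 1.74-fold fall (adjusted p = 0.00222). GIS lost its call without any 1 of the sets (up to 0.337) and without the dye coefficient (0.0654), and BLT without set 1 or 2 (up to 0.061).

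The largest rise of any gene with a symbol, or the largest called fall if the channel order is reversed, was that of SWEET1, a sugar transporter that carries glucose across the plasma membrane. Its values were 1.06, 1.02, 0.90 and 1.04 in sets 1 to 4. All sets gave nearly the same rise, 10.1-fold on average (mean 1.00 ± 0.07, SD, n = 4, adjusted p = 6.99e-09). Its family did not move as one. SWEET17, a fructose carrier of the vacuole membrane, had values of -0.35, -0.35, -0.21 and -0.32 and was 2.04-fold lower (adjusted p = 0.00114). SWEET2, a vacuolar glucose carrier, had values of -0.25, -0.20, -0.11 and -0.18 and was 1.53-fold lower (adjusted p = 0.022). Of the 14 measured genes with a SWEET symbol 21.4% were called, against 3.32% of all features. The other 11 were not called and lay between -0.27 and 0.10, with SWEET10 lowest (-0.27 ± 0.15, SD, n = 4, adjusted p = 0.0726). SWEET17 lost its call without set 2 (0.068) and SWEET2 without set 1, 2 or 4 (up to 0.23).

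NPF3.1 and GTR2 were lower on day 1 than on day 0, and NPF6.4 and MTPA1 higher. These 4 carriers were picked after their values were seen. A list of transporters does not hold them, and limma called 0 of its 10 measured genes, against 3.32% of all features. Of these 10 genes 3 had an unadjusted p under 0.05, and their median was -0.02. NPF3.1 (AT1G68570), a carrier of gibberellins and nitrate, had values of -0.47, -0.53, -0.13 and -0.47 and was 2.52-fold lower (adjusted p = 0.0099). GTR2, which moves glucosinolates, had values of -0.42, -0.42, 0.00 and -0.29 and was 1.91-fold lower (adjusted p = 0.00531). In both genes set 3 was nearest to 0. NPF6.4 (AT3G21670), a nitrate carrier, had values of 0.40, 0.47, 0.07 and 0.17 and was 1.89-fold higher (adjusted p = 0.0164). MTPA1, a zinc carrier of the vacuole, averaged 0.23 ± 0.17 (SD, n = 4) and was 1.70-fold higher (adjusted p = 0.0133). Each of these calls was lost without set 1, 2 or 4, with adjusted p up to 0.204 for NPF3.1, 0.193 for GTR2, 0.232 for NPF6.4 and 0.173 for MTPA1.

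GSTU20 and 4 cytochrome P450s fell. GSTU20, a glutathione transferase, had values of -0.61, -0.54, -0.30 and -0.46 and was 3.01-fold lower on day 1 than on day 0 (adjusted p = 2.91e-05). The CYP71B group of cytochrome P450s had 4 calls among 21 measured genes with a CYP71B symbol, all lower (19% of them, against 3.32% of all features). Of 8 measured genes with another CYP symbol limma called 0 (0 at an unadjusted p under 0.05). P450s named by locus alone were not counted, and the difference between these counts was not tested. CYP71B22 had values of -0.50, -0.47, -0.39 and -0.37 (2.71-fold lower, adjusted p = 0.000815), and CYP71B5 of -0.31, -0.27, -0.25 and -0.21 (1.81-fold lower, adjusted p = 0.00129). GSTU20, CYP71B22 and CYP71B5 were below 0 in all sets and stayed called without any 1 of them. The smaller falls of CYP71B21 (mean -0.18) and CYP71B29 (mean -0.17) were called at adjusted p = 0.0251 and 0.0185, but not with the tissue set as a block (0.0693 and 0.0507) or without set 1 or 2 (up to 0.282 and 0.198), and CYP71B29 not without the dye coefficient (0.0988). Many CYP71B genes are close copies of each other, and signal shared between copies was not tested.

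Prx37, BGLU45 and DFR were lower on day 1 as well. Prx37, a cell wall peroxidase, had values of -0.48, -0.36, -0.27 and -0.47 and was 2.47-fold lower (adjusted p = 0.00255). BGLU45, a glucosidase of lignin precursors, had values of -0.58, -0.60, -0.05 and -0.48 and was 2.68-fold lower (adjusted p = 0.0079), with almost no change in set 3. DFR, the dihydroflavonol reductase of anthocyanin synthesis, had values of -0.60, -0.58, -0.09 and -0.21 and was 2.35-fold lower (adjusted p = 0.0233, and 0.0585 with the block). Sets 1 and 2 carried most of the fall of DFR. In the other direction, GT72B1, a glucosyltransferase of phenolic compounds, averaged 0.21 ± 0.09 and UGT74F1, which glucosylates salicylic acid, 0.15 ± 0.09 (SD, n = 4 each), with adjusted p = 0.00786 and 0.0418. GT72B1 and UGT74F1 were the only calls among 52 measured genes of a glycosyltransferase list (3.85%, against 3.32% of all features, median -0.01). UGT74F1 was not called with the block (0.098). Each of these calls was lost in some fits without 1 set. The adjusted p reached 0.0718 for Prx37 (without set 2 or 4) and 0.156 for GT72B1 (without set 1 or 2). It reached 0.184 for BGLU45, 0.308 for DFR and 0.367 for UGT74F1 (without set 1, 2 or 4). A lost call did not always go with a smaller change, as Prx37 averaged -0.40 without set 2 and -0.39 with all sets.

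Serine carboxypeptidase-like proteins form a large family of peptidases and acyltransferases. Of 33 measured genes with an SCPL symbol 5 were called, or 15.2%, against 3.32% of all features. With the tissue set as a block 2 of the 5 stayed called. SCPL34 and scpl46 were higher, at 1.98-fold and 1.73-fold (adjusted p = 0.00572 and 0.000324). scpl46 had values of 0.28, 0.17, 0.24 and 0.27 and stayed called without any 1 set, whereas SCPL34 ranged from 0.13 in set 3 to 0.37 in set 4 and lost its call without set 1, 2 or 4 (up to 0.134). scpl29 was called higher, and scpl31 and scpl16 lower (1.27-, 1.75- and 1.56-fold). None of these last 3 was called with the tissue set as a block (adjusted p = 0.0984, 0.0502 and 0.0503) or without the dye coefficient (0.131, 0.0702 and 0.128), and each lost its call without set 2 or 4 (up to 0.305, 0.187 and 0.222).

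**Figure D3:**
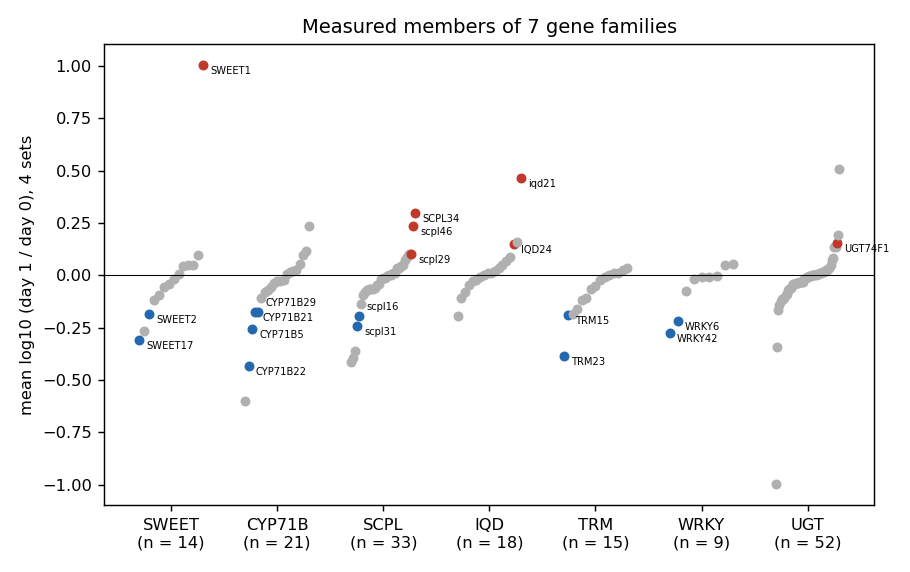
Mean log10 ratio of day 1 over day 0 (n = 4 sets) for every measured gene with the symbol of 1 of 7 families or groups, in order of value within each. Called members are red (higher on day 1) or blue (lower on day 1) and named, and uncalled members are grey: SWEET1 is far above its family at 1.00, all calls in CYP71B, TRM and WRKY are below 0, and both in IQD are above 0.

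TRM23 and TRM15 fell, and iqd21 and IQD24 rose. TRM23, one of a group of proteins that recruit partners to microtubules, had values of -0.40, -0.43, -0.41 and -0.29 and was 2.42-fold lower (adjusted p = 9.57e-06). TRM15 had values of -0.24, -0.13, -0.17 and -0.22 and was 1.55-fold lower (adjusted p = 0.000639). Both falls were present in all sets and stayed called without any 1 of them. They were the only calls among 15 measured genes with a TRM symbol (13.3%, against 3.32% of all features). IQD proteins bind calmodulin and microtubules. Of 18 measured genes with an IQD symbol 2 were called (11.1%, against 3.32% of all features), both higher, and the median was 0.01. iqd21 had values of 0.55, 0.47, 0.14 and 0.70 and was 2.92-fold higher (adjusted p = 0.00229, up to 0.0824 without set 1 or 2). IQD24 was 1.40-fold higher (adjusted p = 0.0251, 0.0646 with the block, and up to 0.249 without set 1, 2 or 4).

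The cytoskeleton list had 1 call among 11 measured genes (9.09%, against 3.32% of all features, list median -0.03), the tubulin TUB1. Its values were -0.15, -0.11, -0.18 and -0.12 averaged over 2 probes (adjusted p = 0.0459 and 0.256 for each alone). It was 1.38-fold lower on day 1 (mean -0.14 ± 0.04, SD, n = 4, adjusted p = 0.0208), and was not called with the tissue set as a block (0.0503) or without any 1 of the sets (up to 0.174).

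Of genes tied to cell growth, EXO, which promotes growth in response to brassinosteroids, had values of 0.44, 0.29, 0.17 and 0.32. It was 2.02-fold higher on day 1 (adjusted p = 0.0169, and 0.0539 with the tissue set as a block). GH3.3, an enzyme that conjugates auxin, had values of 0.21, 0.10, 0.30 and 0.11 and was 1.51-fold higher (adjusted p = 0.00918). It was the only call among 17 measured auxin genes (5.88%, against 3.32% of all features). Its values were higher in the 2 sets with day 1 in Cy5, and it was not called without the dye coefficient (adjusted p = 0.206). XTH32, a xyloglucan-modifying enzyme of the wall, was 1.58-fold lower (mean -0.20 ± 0.06, SD, n = 4, adjusted p = 0.00923). It was the only call among 66 measured cell wall genes (1.52%, against 3.32% of all features). All 3 lost their calls without set 1 or 2 (EXO up to 0.22, GH3.3 up to 0.11, XTH32 up to 0.124), and each without 1 further set.

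In the lists of cell division, cytokinin, autophagy and tissue markers, TRY was the only call. These lists were short, so a count of 0 in each is near what a share of 3.32% gives. Limma called 0 of 7 measured mitotic genes (0 at an unadjusted p under 0.05), 0 of 10 of DNA replication and histones (1), 0 of 8 of cytokinin (0) and 0 of 11 of autophagy (0), against 3.32% of all features. TRY, the only measured marker of trichomes, was called higher. In the other lists of tissue markers 0 genes were called: 0 of 14 of leaf photosynthesis (1 at an unadjusted p under 0.05), 0 of 7 of anther and pollen (1), 0 of 4 of xylem (0) and 0 of 3 of the stomatal lineage (0). Their medians lay at -0.02, 0.05, -0.02 and 0.14. No phloem or root marker of the lists was measured under a name. AUR1 and AUR2, Aurora kinases of mitosis, averaged -0.06 ± 0.12 and -0.10 ± 0.19 (SD, n = 4 each), and for both the lowest value was that of set 3.

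Among the strongest changes, many belonged to loci without a symbol or to probes without a gene name. AT5G22430 had values of 1.02, 0.89, 0.86 and 0.96 (8.53-fold higher, adjusted p = 2.46e-05), and AT3G51660 of 0.85, 0.86, 0.73 and 0.87 (6.72-fold higher, adjusted p = 6.99e-09). The unnamed probe A005205_01 gave 1.28, 1.07, 0.95 and 1.21, the largest called rise at 13.4-fold (adjusted p = 1.42e-06). These 3 features rose by similar amounts in all sets. AT4G11190 had values of -0.87, -0.96, -0.46 and -0.54 and was 5.10-fold lower (adjusted p = 0.00017), and the unnamed probe A001673_01 was 5.13-fold lower (adjusted p = 0.000291). In both, all sets were below 0 and set 3 was the nearest to it. Of the 11448 unnamed probes 439 were called (3.83%, 146 higher and 293 lower), against 511 of the 17186 named genes (2.97%).

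Some calls rest on 1 dye assignment or on the limit of the scale. AT3G30620 had values of 1.55, 0.05, 1.16 and 0.08, so its called rise (adjusted p = 0.00414) came wholly from the 2 sets with day 1 in Cy5, and it was lost without set 1 (0.13) and without the dye coefficient (0.174). Only 3 named calls held a value at 2 or -2. AT5G37400 had 0.48 in set 1, no value in set 2, 0.65 in set 3 and -2 in set 4, and AT5G03640 had -0.29, -2, 0.74 and -2. AT3G26860 had 1.11, -0.05, 2 and 0.18. In these genes the sets did not share a sign, and no fold is given for them. Their adjusted p values were 0.0101, 0.0335 and 0.044 (0.0327, 0.0594 and 0.0549 with the tissue set as a block), leaving out 1 set took them to at most 0.248, 0.265 and 0.301, and leaving out the dye coefficient to 0.985, 0.863 and 0.0735.

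Neighbouring genes that were both called moved in 1 direction. In the order of loci in the RefSeq annotation TAIR10.1, which was used for neighbourhood alone, 9203 pairs of adjacent loci were both measured. In 587 pairs at least 1 locus was called, and in 21 both were called. All of these 21 pairs moved in 1 direction, 3 higher and 18 lower. Among all named genes 2.97% were called, 183 higher and 328 lower, so some pairs of 1 direction, mostly falls, would arise without any tie between neighbours. Whether there were more pairs than these shares give was not tested. AGL72 and AGL71 on chromosome 5 were such a pair, with means of -0.34 and -0.22, as were CYP71B21 and CYP71B22 on chromosome 3 (-0.18 and -0.43). Prx37 lay next to AT4G08780 on chromosome 4 (-0.39 and -0.46), and AT5G23360 next to AT5G23370 on chromosome 5 (-0.38 and -0.36). Among the rises were AT5G55430 and AT5G55440 on chromosome 5 (0.38 and 0.21). AT5G55440 was not called with the tissue set as a block (adjusted p = 0.0623), and without 1 set the adjusted p of AT4G08780, AT5G23370 and AT5G55440 reached 0.0997, 0.0751 and 0.276. Members of several pairs share a gene family, and signal shared between near copies was not tested.

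**Figure D4:**
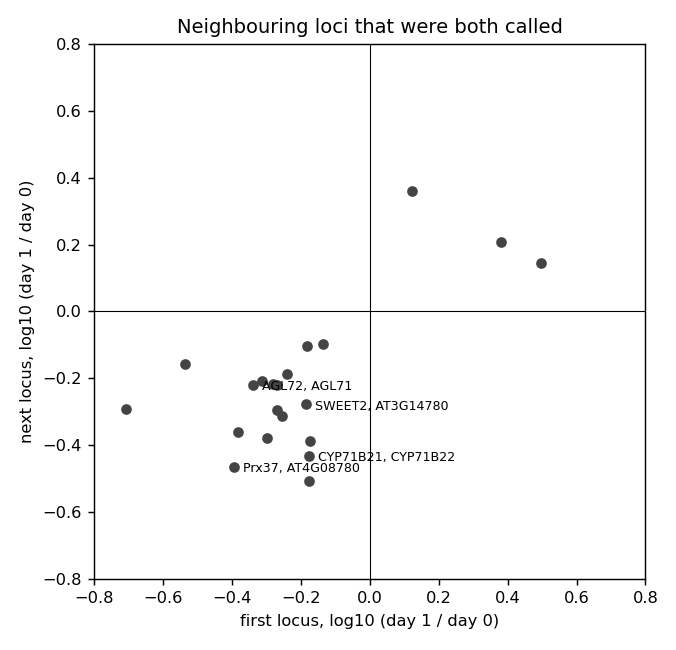
Mean log10 ratio of day 1 over day 0 (n = 4 sets) of both loci in each of the 21 adjacent pairs in which both were called, the first locus on the horizontal and the next on the vertical axis. There are 18 pairs at the lower left (both lower on day 1) and 3 at the upper right (both higher), and pairs with a gene symbol are named.

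The first day was then set against the 4 later daily intervals of the same fit. The change from day 0 to day 1 differed from the mean of the later intervals for 1029 features (3.59% of all), 362 of them higher (1.26%) and 667 lower (2.33%) in the first interval. In the 4 later intervals, in order of days, 329 (1.15%), 120 (0.419%), 387 (1.35%) and 217 (0.758%) features were called. Of the 950 calls, 786 (82.7%) were called in no later interval, against 96.9% of all features. The interval from day 1 to day 2 shares the day 1 tissue with the first, so an error in it would push these values in opposite directions. With sets as blocks, 668 features differed from the later mean, and 287, 215, 1016 and 381 did without sets 1, 2, 3 and 4.

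The genes of floral organs followed different courses. REM22 rose again from day 1 to day 2 (0.74, adjusted p = 0.000287) and from day 2 to day 3 (0.51, adjusted p = 0.00455). RBE rose again on day 2 (0.58, adjusted p = 0.000156) and fell on day 5 relative to day 4 (-0.29, adjusted p = 0.0163), and JAG rose again on day 2 (0.30). UFO did not rise again, and it fell on day 4 relative to day 3 (-0.19, adjusted p = 0.0432) and on day 5 relative to day 4 (-0.23, adjusted p = 0.0193). For UFO the first day differed from the later mean by 0.42 (adjusted p = 0.000166), for RBE by 0.48 (adjusted p = 0.000229), whereas for REM22 the difference of 0.23 was not called (adjusted p = 0.18).

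Among the inflorescence regulators, FD fell on the first day and was called in no later interval, although it averaged -0.19 from day 3 to day 4 (adjusted p = 0.0613; difference of the first day from the later mean -0.34, adjusted p = 0.00173). AGL71 and AGL72 fell again from day 3 to day 4 (-0.27 and -0.25, adjusted p = 0.00708 and 0.0126), and their first day was not called different from the later mean (adjusted p = 0.814 and 0.16). SWEET1 rose once more on day 2, by 0.32 (adjusted p = 0.00545). The first-day falls of SHN2, WSD1, GSTU20, CYP71B22, TRM23 and SWEET17 differed from their later mean (differences between -0.55 and -0.34), and none of these genes was called in a later interval.

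A few genes turned round. DFR, lower on day 1, rose from day 3 to day 4 by 0.69 (adjusted p = 0.000373), and AT4G22870, lower by 0.50 on average on day 1 (values of -0.61, -0.73, -0.21 and -0.45), rose in the same interval by 0.83. MSRB9, a methionine sulfoxide reductase, had values of -0.22, -0.16, -0.39 and -0.15 on the first day (adjusted p = 0.0389), and rose on day 2 (0.46) and day 3 (0.28). The first-day call of MSRB9 was lost without any 1 of the sets (up to 0.202) and without the dye coefficient (0.0537), and that of AT4G22870 without set 1, 2 or 4 (up to 0.195). In the opposite order, AT5G10970, 4.88-fold higher on day 1 with values of 0.71, 0.82, 0.55 and 0.68, fell from day 3 to day 4 (-0.34, adjusted p = 0.0112). AT5G55430, 2.40-fold higher on day 1 with values of 0.45, 0.37, 0.30 and 0.40, fell in that interval too (-0.35). Both rises were present in every set and stayed called without any 1 of them.

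**Figure D5:**
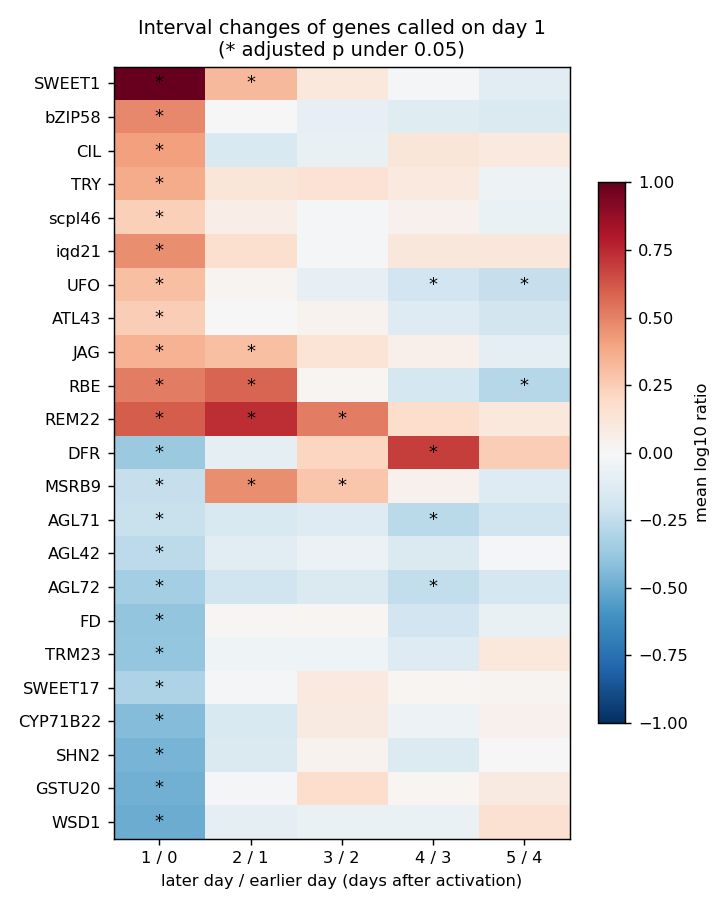
Mean log10 ratio of the later over the earlier day in the 5 daily intervals (columns, n = 4 sets each) for 23 genes called on day 1 (rows), red where the later day was higher, blue where it was lower, with a star where the adjusted p was under 0.05. Every gene has a star in the first column, REM22 has 2 more beside it, and DFR and MSRB9 change colour in later columns.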

How the data were processed

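Amplified RNA carried Cy3 or Cy5, switched between sets, per the labels' protocols. The values are the authors' deposited log ratios, read here as log10 because they stop at 2 and -2; the sources used here do not give log base, numerator, background correction or normalization. Sets 2 and 4 were multiplied by -1. Control spots, empty spots and spots labelled as without information (547 of 30741) were left out, and probes without a gene name were kept. GEO's platform annotation named 1 gene for 18740 of 30194 probes, several for 1 and none for 11453. RefSeq's gene table (TAIR10.1) matched 18645 probes and 95 kept an older name. Probes of a gene were averaged (1428 genes had over 1), which left 17198 genes, and a feature needed values on 3 of 4 arrays of each interval.

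limma 3.58.1 in R 4.3.3 fitted 5 interval coefficients and a dye coefficient to 20 arrays (14 residual and 2.07 prior degrees of freedom), two-sided, with Benjamini-Hochberg adjustment over 28634 features and a threshold of 0.05. On simulated data it recovered 56.2%, 90% and 97% of changes of 0.2, 0.4 and 0.8 (log10), and 8 unchanged features were called. The simulation changed 64, 70 and 66 of 28634 features by these sizes and drew independent normal noise, so these rates need not hold for the data. A fold is 10 raised to the fitted change. Sets are biologically independent per the labels; a number marks a shared tissue set, so the set was tried as a block. Within a set, residuals of neighbouring intervals correlated at a median of -0.08 (-0.16 to 0.15) and of intervals with no shared day at -0.02.

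The genes and lists were chosen with earlier results of these data known. The naming rule took the 25 largest rises and falls of 1 sign in all sets, up to 6 called and 3 uncalled members of each list, the 6 largest called differences from the later intervals in each direction, and named calls at the limit. Symbol-named calls outside it, symbol families, neighbouring loci and unnamed probes were picked after their values were seen. Symbol families hold no gene named by locus alone. Alternatives changed the dye term, the block, the arrays fitted, scaling, centring, limit values, probe averaging, missing values, the direction and the sets kept.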

Additional observations from a re-analysis of the deposited data

Results flagged for a closer look

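In 4 of the named genes, 1 set lay far from the other 3 relative to the range of the group, which chance gives in about 1 in 20 groups. In NPF3.1 (AT1G68570) set 3 stood at -0.13, against -0.53 to -0.47 in the others. For bZIP58 set 3 was 0.14, against 0.58 to 0.63. scpl16 had its lowest value, -0.36, in set 3, and scpl31 its highest, -0.16, in set 2.

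The change from day 0 to day 1 differed from the mean change of the 4 later intervals for 1029 features, by the test of the difference itself.

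Empty spots, which hold no gene, stood at the upper limit of the scale on all arrays, with the lowest share at 43.1% of them and the highest at 93.3% over the 20 arrays, and 0 at the lower limit. The 8 spike-in controls averaged between -0.02 and 0.05 for day 1 over day 0.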

How the results depend on the processing

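The number of calls was within 1.5 times of 950 without the dye coefficient (675), with scaled or centred arrays, with values at the limit left out, with a value on all 20 arrays and with probes kept apart. A fit with the tissue set as a replicate block called 605 features, 208 higher and 397 lower, and 668 differed from the mean of the later intervals; 598 of the 605 were among the 950, and 16 of the 74 genes named in the text lost a call, as given beside them. The block changed the call of no other named gene. With the channel order reversed, every change has the opposite sign and the same p. The 4 arrays alone called 0 features, 0 higher and 0 lower, and without the dye coefficient 5, all higher and 0 lower. With 1 set left out, 195 to 1040 features were called, 91 to 359 higher and 104 to 681 lower, and 215 to 1016 differed from the later mean; set 2 gave the lowest of each. Without set 2 the share of rises was 46.7%, against 34.6% with all sets. The cause was not tested.

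Had the values been turned to the later day before deposit, 814 features would be called, 709 higher and 105 lower, and 1 would differ from the later mean. Before turning here, empty spots stood at the upper limit on all 20 arrays and 0 at the lower limit, whichever dye the later day carried. At these spots the deposited values thus followed the dyes and not the days. If the values had been turned before deposit, the mean would compare opposite dyes, and its sign turned for 43 named genes. Genes given as lower would average 1.08 for AT5G37400, 1.11 for AT5G03640, 0.0438 for AT4G11190, 0.0878 for AT4G22870, 0.0246 for GSTU20, 0.00239 for SHN2, 0.11 for BGLU45, 0.10 for AT1G68570, 0.0707 for FD, 0.0206 for Prx37, 0.0286 for AT5G23360, 0.0231 for DFR, 0.0209 for OLEO3, 0.0594 for AT5G23370, 0.0281 for SWEET17, 0.061 for ARL, 0.0745 for GTR2, 0.00798 for BLT, 0.13 for AGL71, 0.0248 for WRKY6, 0.00295 for AGL24, 0.0476 for XTH32, 0.006 for SWEET2, 0.0559 for CYP71B21, 0.11 for PUCHI, 0.0508 for JKD. Genes given as higher would average -0.0261 for GIS, -0.0334 for IQD24, -0.0501 for UGT74F1, -0.00908 for AT5G55440, -0.0425 for AT3G21670, -0.0468 for SCPL34, -0.0451 for UFO, -0.0100 for JAG, -0.00512 for AT5G55430, -0.0033 for CIL, -0.12 for iqd21, -0.12 for bZIP58, -0.0655 for RBE, -0.21 for REM22, -0.0602 for AT5G10970, -0.038 for AT3G51660, -0.0238 for SWEET1. With the dye assignments taken apart, AT5G37400 and AT5G03640 were above 0 (0.56 and 0.23) in the sets with day 1 in Cy5. SEU ranged from -0.13 to 0.00053 with 1 set left out.

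The table gives no signal over background, so dim probes could not be set aside, and 12 named genes lost their call without the dye coefficient, as given beside them. Changes near 0.2 were recovered in 56.2% of simulated cases, so a missing call at that size says little.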
